A study of Homo sapiens with 6 samples.

Results

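Non-homologous end joining is the pathway by which a broken chromosome is rejoined without a homologous template, and XRCC4 is the scaffold of its ligation step. The 7 genes described here encode its core: XRCC5 and XRCC6 (the Ku heterodimer), PRKDC (the catalytic subunit of the DNA-dependent protein kinase), DCLRE1C (the nuclease Artemis), XRCC4, LIG4 (DNA ligase IV) and NHEJ1 (XLF). They are 7 of the 21358 genes named in the platform annotation. Every probe set annotated to 1 of them was taken, which gave 20 of the 54675 probe sets on the array. RNA was measured in K562, an established human line from a chronic myelogenous leukaemia in blast crisis with erythroid and megakaryocytic features, on Affymetrix whole-genome expression arrays. The 3 resistant arrays held RNA from K562 cells labelled as resistant to 10e-5M methotrexate (MTX), an antifolate drug. That concentration is given as the label writes it, and the notation can be read in more than 1 way. The study's methods write it for these cells as 10 to the power -5 M. The 3 parental arrays held RNA from sensitive K562 cells. By the study's methods the resistant cells were kept in medium lacking glycine, hypoxanthine and thymidine, and the sensitive cells in a complete medium, so the effects of resistance and of the medium cannot be told apart here. The sources describe triplicate samples and do not say that these came from separate cultures, so the p-values measure the spread between these samples, which may be technical.

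In end joining, the ring of Ku70 and Ku80 slides onto the broken end and recruits the DNA-dependent protein kinase. Artemis, switched on by that kinase, trims ends that cannot be joined directly and opens the hairpins formed in V(D)J recombination. XRCC4 binds and stabilises DNA ligase IV, which seals the strand, and XLF forms filaments with XRCC4 that hold the ends together. Loss of any of these proteins makes mammalian cells sensitive to ionising radiation.

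Each signal is given as a multiple of the median signal of its own array. The array medians were 12.3, 12.5 and 10.2 intensity units in the resistant arrays and 14.3, 13.1 and 12.7 in the parental arrays. Parental array 1 stood apart over the probe sets with a mean signal of at least 1 array median. Its Spearman correlation was 0.899 and 0.889 with parental arrays 2 and 3 (0.969 between those 2 arrays). The resistant arrays correlated at 0.941 to 0.968 among themselves. The 7 K562 marker genes with a probe set of their own were above the array median on all 6 arrays (HBG1 and HBG2 were not analysed here), with a summed level of 1128 to 1335 in resistant and 1664 to 1759 in parental arrays. Among them HBE1 (epsilon globin) was called lower, at 73.8, 73.5 and 37.6 in resistant arrays, against 670.3, 561.7 and 569.5 in parental arrays (adjusted p = 0.00562, limma), and the other 6 were not called. Epithelial markers (EPCAM, CDH1, KRT19) summed to 18.0 to 37.7 in resistant arrays, to 115.03 in parental array 1 and to 43.1 and 32.8 in parental arrays 2 and 3. KRT19 made up most of each sum. EPCAM was at most 0.471 array medians in resistant arrays, against 9.53, 1.19 and 0.307 in parental arrays 1, 2 and 3. CDH1 was at most 0.373 in resistant arrays, against 21.8, 2.01 and 0.717 in parental arrays 1, 2 and 3. T cell markers (CD3D, CD3E, CD2) summed to 1.50 to 3.14 in resistant and 33.9 to 51.2 in parental arrays, through CD3D, while CD2 was under 1 array median on every array. The part of these other-cell markers in the results was not tested.

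The core genes divided into 1 gene that rose and 6 that were not called. XRCC4 rose 7.29-fold to 9.70-fold in resistant cells on the 3 probe sets that were above the array median in both groups (adjusted p = 0.00284 to 0.00397, limma). Its other probe set, 210812_at, was called too (adjusted p = 0.0335), but its parental mean was 0.961 array medians and it reached the level minimum for testing only through the resistant arrays. The other 12 tested probe sets, for the 6 partner genes, gave 0 calls with log2 differences of -0.85 to 0.35 and adjusted p of 0.225 to 0.975, and 1 of them had an unadjusted p under 0.05, against 18.7 percent over every probe set tested. Calls required a probe set to change at least 2-fold with an adjusted p below 0.05, over 26692 probe sets with a mean signal of at least 1 array median. Of the 20 member probe sets, 16 reached that level. Over all tested probe sets 1.2 percent were called higher and 1.14 percent lower, against 4 higher (210812_at included) and 0 lower among the 16. The median log2 difference was 0.13 over the 16, 0.05 over the 12 that do not name XRCC4, and 0.03 over all tested probe sets. In bulk RNA, fewer cells that express a gene and less of its RNA in each cell cannot be told apart.

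**Figure D1:**
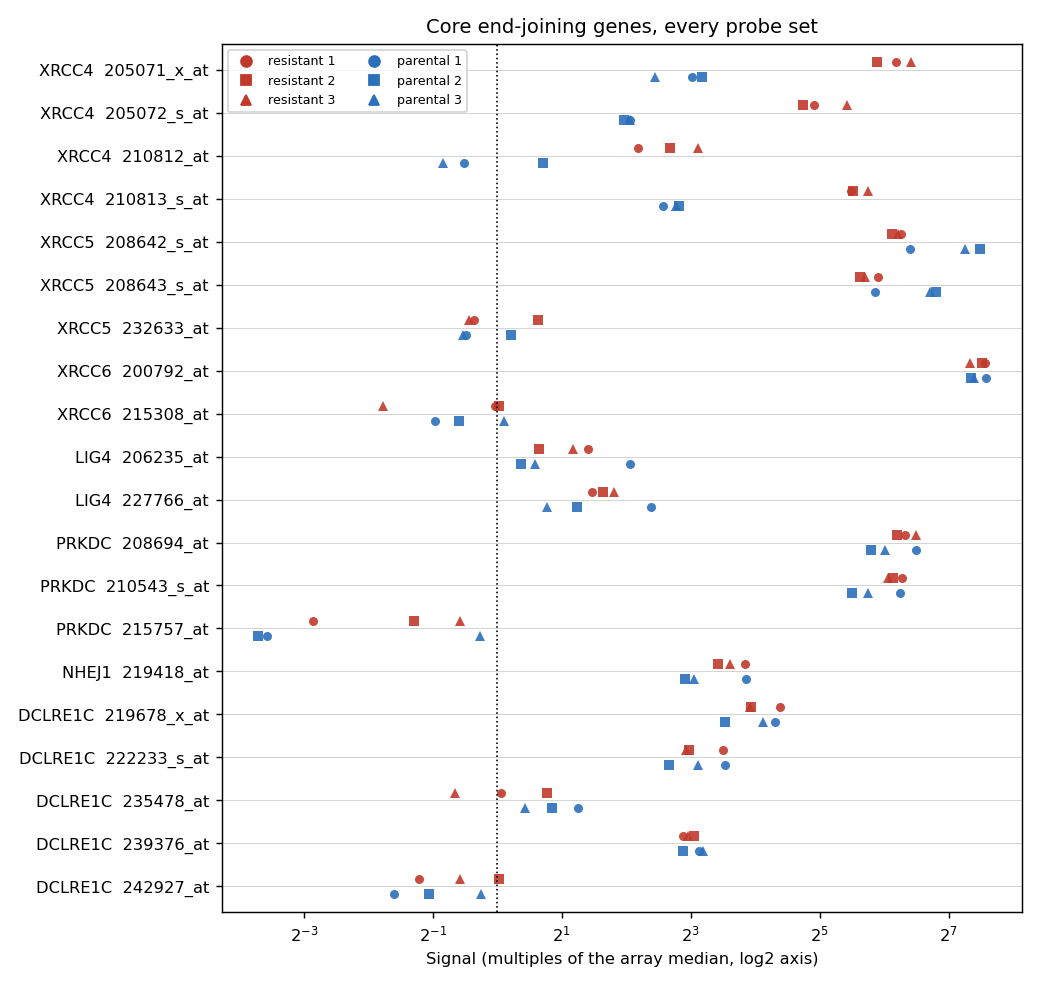
Signal of each of the 20 member probe sets on each array, plotted on a log2 axis as multiples of that array's median. Red symbols are resistant and blue symbols parental arrays, with a symbol shape for each replicate number and a dotted line at the array median. The 4 XRCC4 probe sets are the only tested ones whose 3 resistant symbols all lie to the right of the parental ones.

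XRCC4 was represented by probe set 205071_x_at, at 72.4, 59.2 and 85.2 array medians in resistant cells, against 8.15, 9.04 and 5.43 in parental cells. The lowest resistant array was 6.55 times the highest parental array. The means were 72.2 ± 13.0 in resistant and 7.54 ± 1.88 in parental cells (SD, n = 3 each), a log2 difference of 3.28 (SE 0.282), or 9.70-fold with a 95% interval of 6.07 to 15.5 (adjusted p = 0.00397, limma). Without parental array 1 the log2 difference was 3.35 (adjusted p = 0.00693). The _x_at suffix marks a probe set whose probes may also match other transcripts, and the other 3 XRCC4 probe sets do not carry it.

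Probe set 205072_s_at had 30.1, 26.8 and 43.1 array medians in resistant cells, against 4.16, 3.90 and 4.17 in parental cells (8.01-fold, interval 5.32 to 12.1, adjusted p = 0.00349, limma). Probe set 210813_s_at had 44.8, 45.7 and 53.9 in resistant cells, against 5.91, 7.02 and 6.87 in parental cells (7.29-fold, interval 5.17 to 10.3, adjusted p = 0.00284). In both, each resistant array was more than 6 times the highest parental array (6.45 and 6.38 times at the least). The suffix _s_at marks probes shared among several transcripts, so isoforms were not separated. The platform annotation names only XRCC4 for both probe sets.

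The fourth XRCC4 probe set, 210812_at, had 4.53, 6.40 and 8.62 array medians in resistant cells, against 0.699, 1.63 and 0.559 in parental cells (7.32-fold, interval 3.41 to 15.7, adjusted p = 0.0335, limma). Its groups did not overlap either, with the lowest resistant array 2.79 times the highest parental array. As 2 of its 3 parental values lay under the array median, its fold depended on the pseudocount and was 5.80 with 0.25 and 3.84 with 1 array median added. This call was lost in 8 of 16 alternative settings, including the removal of resistant array 1, 2 or 3 (adjusted p = 0.077, 0.131 and 0.108) or of parental array 1 or 3 (adjusted p = 0.053 and 0.0933). It and 210813_s_at were designed from the same cDNA, so the 4 probe sets are not 4 separate measurements of the transcript. The spread between the 4 log2 differences was 0.41, less than the width of any of their intervals.

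**Figure D2:**
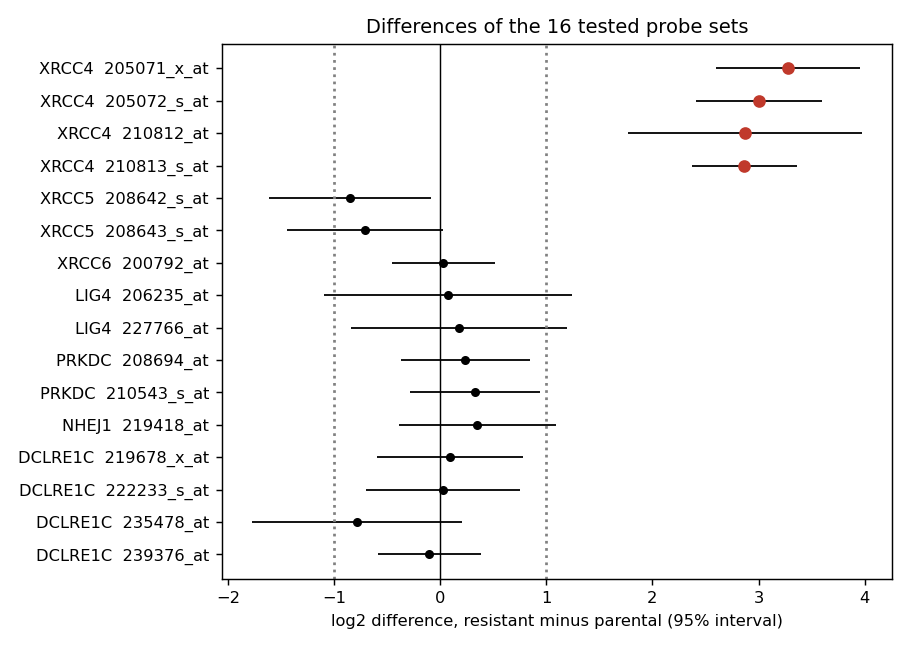
Log2 difference between resistant and parental cells for the 16 tested member probe sets, with 95% intervals from limma. Red points were called, dotted lines mark a 2-fold difference in either direction, and the XRCC4 intervals lie wholly above the upper line while those of all 12 other probe sets include differences of under 2-fold.

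LIG4, the ligation partner of XRCC4, was not called on either of its probe sets. Probe set 227766_at was at 2.77, 3.11 and 3.51 array medians in resistant cells, against 5.24, 2.34 and 1.71 in parental cells, a log2 difference of 0.18 (SE 0.426, interval -0.84 to 1.20, adjusted p = 0.857, limma). Its other probe set, 206235_at, had 2.66, 1.57 and 2.25 in resistant cells, against 4.17, 1.29 and 1.50 in parental cells (log2 difference 0.07, interval -1.09 to 1.24). In both, parental array 1 was above all resistant arrays, and parental arrays 2 and 3 were below all of them. Without parental array 1 the log2 differences were 0.64 and 0.60, neither of them called (adjusted p = 0.217 and 0.299). The intervals leave room for a change of about 2-fold in LIG4 in either direction, and they lie below the 9.70-fold of XRCC4.

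The single probe set for NHEJ1, 219418_at, is also annotated to SLC23A3, a solute carrier gene, so its signal cannot be assigned to NHEJ1 alone. It had 14.3, 10.7 and 12.2 array medians in resistant cells, against 14.5, 7.54 and 8.33 in parental cells. Parental array 1 was again the highest of its group, above every resistant array. The log2 difference was 0.35 (interval -0.39 to 1.09, adjusted p = 0.584, limma), and 0.64 without parental array 1 (adjusted p = 0.190).

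Of the Ku subunits, XRCC6 overlapped between the groups. Probe set 200792_at had 189.99, 183.6 and 161.2 array medians in resistant cells, against 191.5, 163.4 and 168.6 in parental cells. The log2 difference was 0.03 (SE 0.202, interval -0.45 to 0.51, adjusted p = 0.953, limma), so that the interval reaches 1.43-fold higher at most.

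XRCC5 pointed the other way without being called. Probe set 208642_s_at had 76.6, 69.3 and 74.1 array medians in resistant cells, against 84.3, 178.9 and 153.2 in parental cells. It was the 1 member of the 16 whose resistant arrays all lay below the parental arrays, beside the 4 XRCC4 probe sets whose resistant arrays all lay above. Over all tested probe sets 14.9 percent had all resistant arrays above and 12.3 percent all below. The log2 difference was -0.85 (SE 0.320, interval -1.62 to -0.08, adjusted p = 0.225, limma). Without parental array 1 it was -1.18 and was called lower (adjusted p = 0.0444).

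The other tested XRCC5 probe set, 208643_s_at, had 60.2, 49.3 and 52.2 array medians in resistant cells, against 57.9, 111.6 and 104.6 in parental cells. The low value of parental array 1 overlapped the resistant arrays here, and the log2 difference was -0.71 (interval -1.44 to 0.03, adjusted p = 0.283, limma). Without parental array 1 it was -1.01, not called (adjusted p = 0.0677). The 2 Ku subunits work as a dimer, and the ratio of XRCC6 (200792_at) to XRCC5 (208642_s_at) signal, looked at after their values were seen, was 2.48, 2.65 and 2.17 in resistant arrays, against 2.27, 0.913 and 1.10 in parental arrays. Parental array 1 had a ratio within the resistant range.

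The kinase subunit PRKDC did not pass the test on either probe set. Probe set 208694_at had 80.1, 73.9 and 89.95 array medians in resistant cells, against 90.1, 55.8 and 64.9 in parental cells (log2 difference 0.23, interval -0.37 to 0.84, adjusted p = 0.66, limma). Probe set 210543_s_at had 77.96, 70.2 and 66.7 in resistant cells, against 75.8, 45.5 and 53.7 in parental cells (log2 difference 0.33, interval -0.29 to 0.94, adjusted p = 0.535). On both, the resistant arrays were above parental arrays 2 and 3, and parental array 1 lay within or just above them.

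DCLRE1C, the end-trimming nuclease, was read by 4 tested probe sets, and none was called. Probe set 219678_x_at, which represented the gene, had 20.97, 15.2 and 15.1 array medians in resistant cells, against 19.8, 11.6 and 17.4 in parental cells (log2 difference 0.09, interval -0.60 to 0.78, adjusted p = 0.896, limma). The largest difference, on 235478_at, was -0.78 (adjusted p = 0.366), with 1.04, 1.70 and 0.637 in resistant cells, against 2.38, 1.79 and 1.35 in parental cells. The groups overlapped on all 4 probe sets of this gene. The 4 member probe sets under the level minimum, 1 each of XRCC5, XRCC6, PRKDC and DCLRE1C, reached at most 1.55 array medians on any array and were given no test.

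A ratio of 2 signals on 1 array does not depend on how arrays are scaled, and the change in that ratio asked how far XRCC4 moved relative to each partner. Relative to LIG4, whose protein XRCC4 stabilises, the log2 ratio was 4.52 ± 0.239 in resistant and 1.42 ± 0.689 in parental arrays (SD, n = 3 each), a change of 3.10, or 8.58-fold. The change in ratio was 9.49-fold relative to XRCC6, 9.12-fold relative to DCLRE1C, 8.24-fold relative to PRKDC and 7.61-fold relative to the probe set shared by NHEJ1. It was 17.5-fold relative to XRCC5, whose own resistant arrays all lay below the parental ones. For all 6 partners every resistant array lay above every parental array. The 6 ratios share the same numerator, XRCC4, whose lowest resistant array was by itself 6.55 times its highest parental array. They therefore restate that rise and are not 6 separate results. The exact two-sided permutation test gave p = 0.1 for each of the 6 ratios (0.1 after Benjamini-Hochberg adjustment), the smallest value that 3 arrays against 3 allow, so this test cannot reach 0.05.

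**Figure D3:**
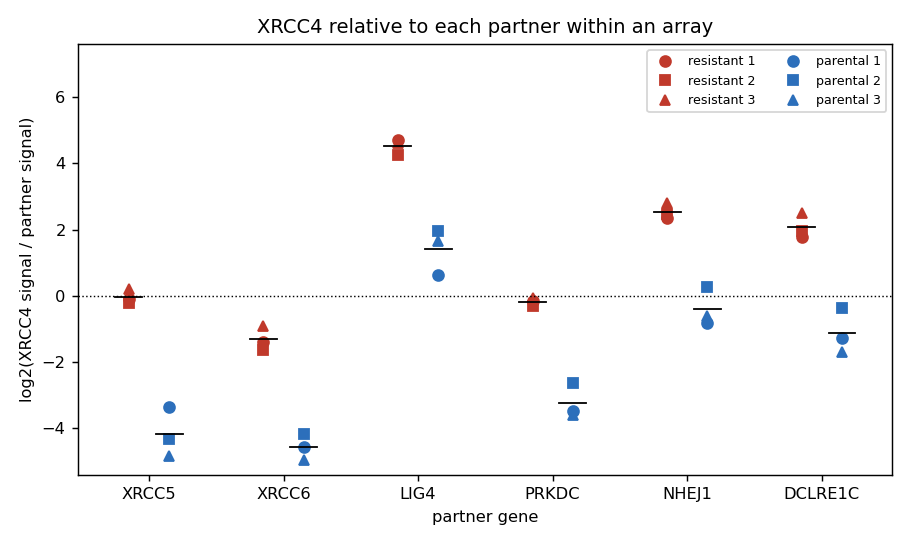
Log2 of the XRCC4 signal (205071_x_at) over the signal of each partner on the same array, for 3 resistant (red, left) and 3 parental (blue, right) arrays, with black bars at the group means. The gap between the groups, not the height of a column, carries the comparison, and it runs from 2.93 for the NHEJ1 probe set to 4.13 for XRCC5.

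The promoter of XRCC4 is shown because the gene that starts next to it, TMEM167A, rose with it. Whether the sequence they share has a part in either rise was not tested, and genes further away rose too, as given below. RefSeq (GRCh38.p14) places the window from 250 bases before to 50 bases after the XRCC4 start at chr5:83077297-83077596 on the plus strand. The start of TMEM167A, a small membrane protein of the secretory pathway, lies 153 bases away on the other strand, so the 2 genes are arranged head to head and their windows share 252 bases. The capitals mark, from the 5′ end, an ETS core (TTCCGG, the reverse complement of CCGGAA) 190 bases before the start, a GC box (GGGCGG) 93 bases before it, a second ETS core (CCGGAA) 59 bases before it and an ATTGG, the reverse complement of the CCAAT box, at the start site.
XRCC4 promoter: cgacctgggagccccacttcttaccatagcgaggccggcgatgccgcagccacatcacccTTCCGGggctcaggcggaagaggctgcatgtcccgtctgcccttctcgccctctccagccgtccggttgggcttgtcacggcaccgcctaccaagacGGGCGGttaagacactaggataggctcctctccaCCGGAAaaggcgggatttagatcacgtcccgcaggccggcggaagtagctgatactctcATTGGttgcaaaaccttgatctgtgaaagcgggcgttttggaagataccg

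Both strands were searched for these letters and for TATAAA, which is not in this window. Of 35116 RefSeq windows of the same length, 45 percent hold GGGCGG, 34.6 percent CCAAT, 17.2 percent CCGGAA and 11.5 percent TATAAA. Windows matched for 5 of the 7 members (11 windows, several genes having more than 1 start), and of these 8 hold GGGCGG, 6 CCAAT, 6 CCGGAA and 1 TATAAA. Some windows of LIG4 overlap one another, as do those of NHEJ1, so the same bases are counted more than once. These counts are therefore not shares to set against the percentages. By gene, CCGGAA was in windows of XRCC4, LIG4 and DCLRE1C and in none of XRCC6 or NHEJ1. The motifs do not overlap one another in the letters searched, and a match describes the sequence only. The printed window serves XRCC4 on the plus strand and, read on the other strand, most of the window of TMEM167A.

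TMEM167A was read by 226276_at at 400.3, 321.5 and 368.3 array medians in resistant cells, against 93.9, 81.5 and 69.2 in parental cells, 4.47-fold (interval 3.09 to 6.47, adjusted p = 0.00744, limma). Both of its probe sets were called, with all resistant arrays far above the parental ones, though 226276_at lost its call when no level minimum was set (adjusted p = 0.067). Its interval overlaps that of XRCC4 (6.07 to 15.5) between 6.07 and 6.47, and the difference between the 2 folds was not tested.

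Beyond this pair, the nearest tested genes on chromosome 5 were taken in annotation order, 4 on each side. On the TMEM167A side, ATP6AP1L, annotated next to it, was at 77.5, 80.7 and 61.1 array medians in resistant cells, against 3.87, 2.43 and 2.35 in parental cells, 25.9-fold higher (adjusted p = 0.00160, limma), and both of its probe sets were called, the other (1557523_at) having reached the level minimum only through the resistant arrays. ATG10, an enzyme that attaches ATG12 to ATG5 in autophagy, was at 111.2, 93.2 and 81.3 in resistant cells, against 10.9, 14.2 and 13.5 in parental cells (7.39-fold, adjusted p = 0.00322), and 4 of its 4 probe sets were called.

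RPS23, a protein of the small ribosomal subunit that lies between them, gave 2 different readings. Its probe set 200926_at was not called, at 982, 921 and 1129 array medians in resistant cells, against 799, 830 and 793 in parental cells (1.25-fold, adjusted p = 0.436, limma). Its probe set 227722_at rose 8.95-fold, with 57.0, 47.5 and 42.1 in resistant cells, against 6.04, 6.31 and 4.17 in parental cells (adjusted p = 0.00348). The probe sets of this gene therefore disagree, and each is given as measured.

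On the far side of XRCC4, VCAN, the extracellular proteoglycan versican, was at 8.32, 9.85 and 10.5 array medians in resistant cells, against 0.748, 0.740 and 1.00 in parental cells (11.6-fold, adjusted p = 0.00194, limma, and 5.75-fold with a pseudocount of 1 array median). All 5 of its probe sets were called, and all 5 had a parental mean under 1 array median and reached the level minimum only through the resistant arrays. HAPLN1 and EDIL3, which lie between VCAN and COX7C, did not reach the level minimum on any probe set. The next 3 tested genes, COX7C (a subunit of cytochrome c oxidase), CCNH (cyclin H) and TMEM161B, were 1.46-fold, 2.17-fold and 1.95-fold higher, with all resistant arrays above all parental arrays, but none was called (adjusted p = 0.202, 0.0731 and 0.0951). By the probe set standing for each gene, 1.3 percent of 11810 genes were called higher and 1.47 percent lower. Around XRCC4, 4 of the 8 neighbours were called higher by that probe set (VCAN included) and 0 lower.

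**Figure D4:**
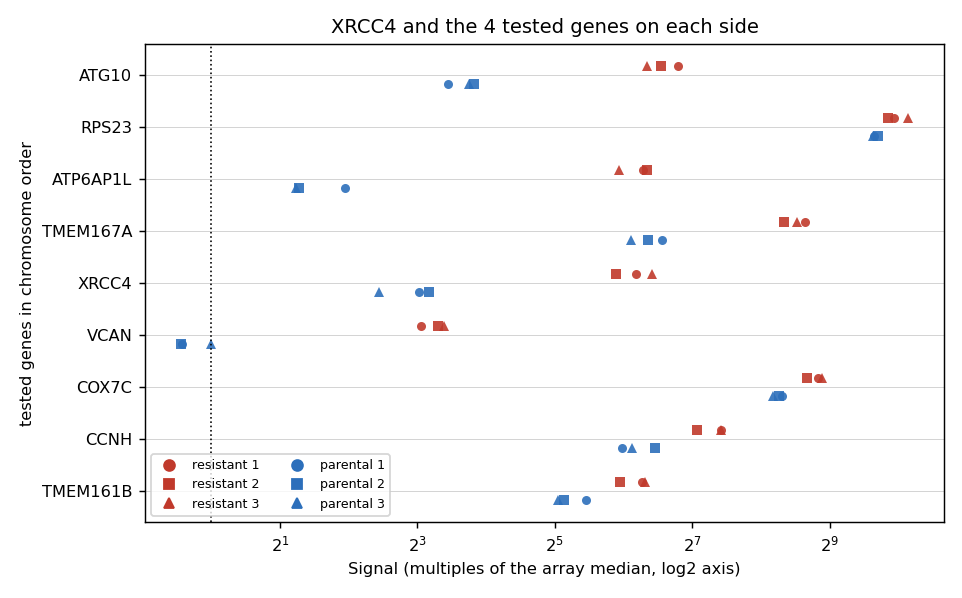
Signal of XRCC4 and of the 4 tested genes on each side of it in annotation order on chromosome 5, plotted on a log2 axis as multiples of each array's median, with red resistant and blue parental arrays. Each gene is shown by the 1 probe set that stands for it. The groups are widely apart from ATG10 to VCAN except at RPS23, and closer for COX7C, CCNH and TMEM161B.

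The genes whose profile over the 6 arrays was most like that of XRCC4, measured by the root mean square distance between log2 levels set to each gene's parental mean, were TRIM71, ZCCHC9, CMYA5, HOMER1 and IKZF2, of 11809 genes. Their distances were 0.107, 0.313, 0.315, 0.338 and 0.373, and their Pearson r with XRCC4 was 0.981 to 0.998, a value set largely by the gap between the 2 groups of arrays. ZCCHC9, CMYA5 and HOMER1 are on chromosome 5 like XRCC4, TRIM71 is on chromosome 3 and IKZF2 on chromosome 2. TRIM71, an RNA-binding protein of stem cells and the nearest, was at 5.25, 5.10 and 5.95 array medians in resistant cells, against 0.615, 0.748 and 0.402 in parental cells. TRIM71 and IKZF2 had parental means under 1 array median, and with a pseudocount of 1 array median TRIM71 was 4.06-fold and IKZF2 5.17-fold higher, against 9.52-fold and 12.1-fold without it. These genes were picked for their likeness, so no test of it is given.

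The wider end-joining pathway, described by 4 gene lists, held no called gene. Of 32 genes, 25 had a tested probe set of their own, 0 were called higher and 0 lower, against 1.3 and 1.47 percent of all genes, so that 0 of 25 is near the background. A log2 difference above 0 was found for 17 of the 25, but the share of all genes above 0 is not given here for comparison. The median over the 25 was 0.15, against 0.02 over all genes. Among them 6 had an unadjusted p under 0.05, against 2362 of all 11810 genes, and the lowest adjusted p was 0.0789. APLF was under the level minimum, and SHLD3 and RBBP8 were not analysed here.

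The accessory and end-processing factors had a median log2 difference of 0.18 over 8 tested genes. CYREN, an inhibitor of end joining, was at 21.4, 15.02 and 14.5 array medians in resistant cells, against 34.1, 29.1 and 26.1 in parental cells (log2 difference -0.83, adjusted p = 0.154, limma). All its resistant arrays were below the parental arrays, and it did not pass the test. POLL, a gap-filling DNA polymerase, had the highest difference of the lists, 1.27 (adjusted p = 0.413), carried by 1 array: 3.50, 0.984 and 0.608 in resistant cells, against 0.385, 1.12 and 0.346 in parental cells. It too reached the level minimum only through the resistant arrays, and with a pseudocount of 1 array median its log2 difference was 0.62. TDP2, which removes protein adducts from DNA ends, and POLM, another gap-filling polymerase, differed by 0.37 and 0.40 (adjusted p = 0.471 and 0.641).

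The V(D)J recombination genes RAG1, RAG2 and DNTT, which belong to lymphoid precursors, were all under the level minimum. The genes of repair pathway choice had a median log2 difference of -0.06 over 9 tested genes, with 0 called. MDC1, a scaffold on chromatin beside a break, was at 41.3, 35.4 and 46.8 array medians in resistant cells, against 25.96, 25.3 and 21.9 in parental cells (log2 difference 0.75, adjusted p = 0.142, limma). Its groups did not overlap. TP53BP1, which favours end joining over resection, differed by -0.40 (adjusted p = 0.518), and the shieldin-associated SHLD1 and MAD2L2 by -0.45 and -0.57 (adjusted p = 0.376 and 0.401).

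The alternative end-joining and resection genes had a median of 0.47 over 8 tested genes, and 4 of the 8 had an unadjusted p under 0.05 (2362 of 11810 over all genes), with 0 called. RAD50, the ATPase of the MRN complex, was at 59.7, 59.1 and 59.7 array medians in resistant cells, against 30.5, 35.5 and 30.2 in parental cells (log2 difference 0.90, adjusted p = 0.0789, limma). LIG3, the ligase of alternative joining, was at 24.3, 25.6 and 26.3 in resistant cells, against 17.6, 10.6 and 12.2 in parental cells (0.95, adjusted p = 0.12). Both had resistant arrays wholly above the parental arrays, and LIG3 was called higher without parental array 1 (log2 difference 1.16, adjusted p = 0.0439).

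MRE11, the nuclease of MRN, was at 25.8, 23.1 and 23.9 array medians in resistant cells, against 17.1, 14.03 and 13.8 in parental cells (log2 difference 0.70, adjusted p = 0.145, limma). PARP2, a sensor of DNA breaks, was at 46.7, 43.7 and 39.99 in resistant cells, against 17.01, 28.6 and 28.7 in parental cells (0.85, adjusted p = 0.174). The third MRN gene, NBN, overlapped between the groups at 0.24 (adjusted p = 0.74).

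**Figure D5:**
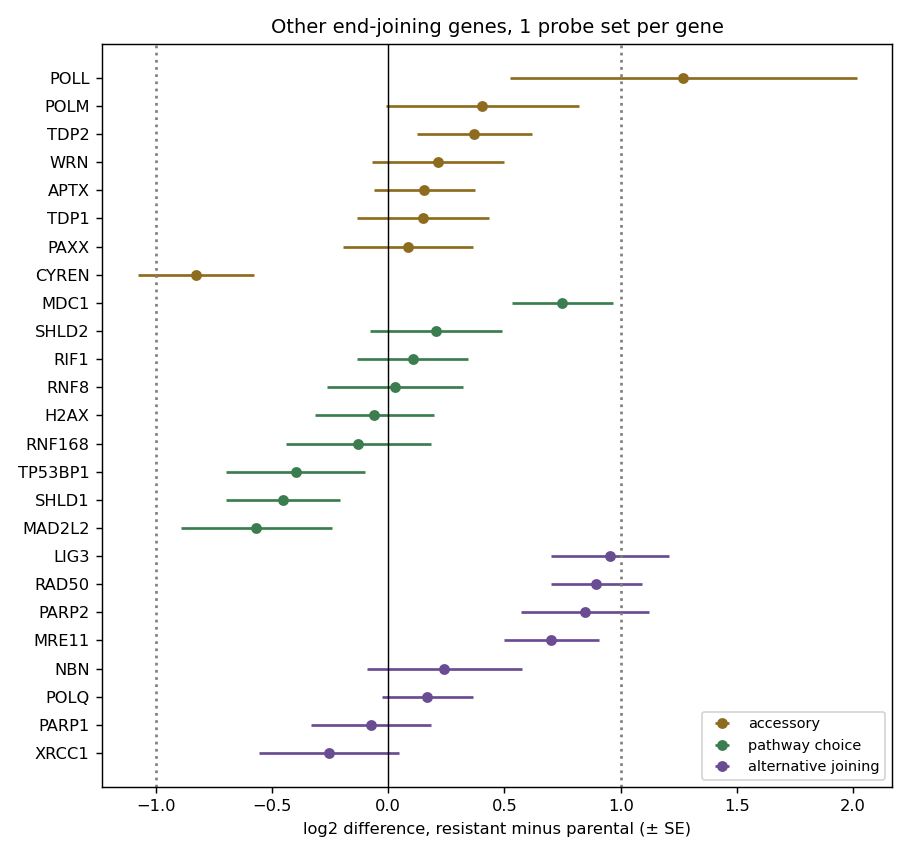
Log2 difference between resistant and parental cells for the 25 tested genes of the pathway lists, by 1 probe set per gene, with bars of 1 SE from limma. Colours mark the list and dotted lines a 2-fold difference, and no gene was called.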

How the data were processed

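RNA of 3 MTX-resistant and 3 parental K562 samples was hybridised to Affymetrix arrays. The deposited values are MAS5 signal intensities on a linear scale, 1 per probe set, made by the authors. The version of the software, and any scaling target beyond the values themselves, were not given in the sources used here. Gene names came from the platform annotation: 41097 probe sets name 1 gene, 1801 several and 11777 none.

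Each intensity was divided by its array median, as in the study's methods, floored at 0.01 array medians and put on the log2 scale. The 62 control probe sets, and those with a mean under 1 array median, were left out. Groups were compared with limma 3.58.1 (R 4.3.3) and Benjamini-Hochberg adjustment over 26692 probe sets, with calls at adjusted p below 0.05 and at least 2-fold. A gene was represented by the tested probe set naming it alone with the highest mean log2 level (for NHEJ1, the shared probe set was used in the ratios). Named were all members, up to 4 genes per pathway list with the smallest p, the 4 tested neighbours on each side of XRCC4, and the 5 genes with the most similar profile. The members and lists were chosen with earlier results of these data known. Scripts were tested on simulated data. The number of arrays limits precision. Same-numbered samples of the groups did not deviate together (correlations of -0.0253 to -0.0064), so replicates were not paired. Other normalizations, level filters, pseudocounts, test settings, a replicate block and the removal of each array were tried.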

Additional observations from a re-analysis of the deposited data

How the results depend on the processing

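The XRCC4 representative probe set kept its direction and call in 16 of 16 alternatives (log2 difference 3.06 to 3.43, adjusted p = 9.03e-05 to 0.0492, limma), and the 6 ratios of XRCC4 to a partner kept their direction in 9 of 9. Between 3 and 4 member probe sets were called higher, with 210812_at lost with no level filter (adjusted p = 0.125), with the methods' test (0.141), with the replicate block (0.0803) and without 5 of the arrays. Leaving out 1 array gave 0 to 1 member probe sets called lower (XRCC5 without parental array 1) and 0 to 1 pathway genes called higher (LIG3, also without parental array 1). Over the other alternatives both counts stayed at 0. With an intensity trend and robust prior RAD50 had adjusted p = 0.0172 and LIG3 0.0478 (limma), but both stayed under the 2-fold minimum. So did RAD50 with a level filter at 2 array medians (adjusted p = 0.0439) and with a pseudocount of 1 (0.0356).

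Differences near 0 changed sign. With the values as deposited, where the median of all tested probe sets was -0.17, XRCC6 was at -0.17, LIG4 at -0.13 (206235_at) and -0.024 (227766_at), and DCLRE1C at -0.11 (219678_x_at) and -0.17 (222233_s_at). With quantile normalization XRCC6 was at -0.11 and RPS23 200926_at at -0.041. With 1 array left out, XRCC6 ranged from -0.017 to 0.10, LIG4 from -0.24 to 0.60 and from -0.17 to 0.64, DCLRE1C from -0.14 to 0.25 and from -0.19 to 0.24, and POLM from -0.0050 to 0.71. The values as deposited were not divided by the array medians, which were lower in the resistant arrays, and this shifts these log2 differences down alike. The cause of the other changes of sign was not tested.

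Over all probe sets, 319 higher and 303 lower calls became 210 and 321 with the values as deposited (39.5 in place of 51.3 percent higher), 97 and 77 with no level filter, 599 and 592 with a pseudocount of 1, 563 and 570 with an intensity trend and robust prior, 82 and 44 with the methods' test, 133 and 136 with the replicate block, and 103 to 633 higher and 79 to 447 lower with 1 array left out. A level filter at 2 array medians gave 465 and 445, and a pseudocount of 0.25 gave 462 and 455. Under the replicate block the XRCC4 representative had adjusted p = 0.0351, and of the named members and pathway genes only 210812_at changed its call. Of 16 alternatives, CMYA5 lost its call in 6, IKZF2 in 5, and TRIM71 and TMEM167A in 1 each, and CCNH gained one in 3.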
